A study of Mus musculus with 12 samples.

Results

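The transcripts of 10 genes of tubulin, the protein that colchicine binds, were followed by symbol in RNA-seq of mouse kidney. They comprise 4 alpha-tubulin genes (Tuba1a, Tuba1b, Tuba1c and Tuba4a) and 6 beta-tubulin genes (Tubb2a, Tubb2b, Tubb3, Tubb4b, Tubb5 and Tubb6). All 10 were found among the 40213 genes in the files, and all 10 were among the 17841 that passed the filter on low counts. The 12 libraries, from kidneys of C57BL/6 mice, formed 3 groups of 4. Controls had a normal diet and intraperitoneal saline. The chronic kidney disease (CKD) group had saline and a diet labelled 2% adenine, whose crystals injure the tubules. The third group had adenine and colchicine by intraperitoneal injection at 0.3 mg/kg/day. Colchicine replicates 1 to 4 are labelled 2, 3, 4 and 5% adenine, so the drug and the labelled percentage cannot be told apart in replicates 2 to 4. No group received colchicine without adenine. The study describes its libraries as biological replicates, but the labels identify no individual animals, and p-values cover only the variation among these libraries.

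Microtubules are hollow polymers of alpha and beta tubulin dimers, and each family is encoded by several isotype genes with their own tissue distribution. Colchicine binds the dimer and keeps it from polymerising, which raises the pool of free tubulin. Cells answer a rise in free tubulin by destroying tubulin mRNA while it is being translated: TTC5 recognises the first residues of a new tubulin chain on the ribosome and, through SCAPER, brings in the CCR4-NOT deadenylase. In kidney, microtubules carry epithelial polarity, vesicle traffic, primary cilia and mitotic spindles.

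The opening of the coding sequence is shown because it encodes the residues TTC5 reads. Sequences are from GENCODE M21 transcripts on GRCm38, which is not the build of the deposited files, and the first 4 codons are in capitals.
Tuba1a: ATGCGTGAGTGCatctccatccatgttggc
Tuba4a: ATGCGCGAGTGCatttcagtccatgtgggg
Tubb2a: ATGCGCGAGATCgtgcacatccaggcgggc
Tubb2b: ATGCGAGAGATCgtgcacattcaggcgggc
Tubb4b: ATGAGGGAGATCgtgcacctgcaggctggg
Tubb5: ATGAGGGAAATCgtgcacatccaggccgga
The start codon of Tuba1a lies at chr15:98953451-98953453, that of Tuba4a at chr1:75219193-75219195, that of Tubb2a at chr13:34077927-34077929 and that of Tubb2b at chr13:34130231-34130233. That of Tubb4b lies at chr2:25224588-25224590 and that of Tubb5 at chr17:35838051-35838053. All 6 are on the minus strand in exon 1. In the alpha genes the start codon is followed by an intron, with 3 coding bases in exon 1, whereas the beta genes have 57. The first 4 codons have 2 spellings among the 4 alpha genes and 5 among the 6 beta genes, and translate to 1 peptide in each family.

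Some isotypes are near copies. Coding identity was 98.3% between Tuba1a and Tuba1b, 97.1% between Tuba1a and Tuba1c, 97.9% between Tuba1b and Tuba1c, and 96.5% between Tubb2a and Tubb2b. Of the 50-base windows of the Tuba1a, Tuba1b, Tuba1c, Tubb2a and Tubb2b transcripts, 52, 64.6, 59.8, 45.6 and 33.4% occurred in another tubulin transcript. How the authors' counting divided such reads can move counts between these 5 genes, so their separate values are uncertain. Tuba4a, Tubb3, Tubb4b and Tubb6 shared no window and Tubb5 shared 1 of 2600.

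Library totals ranged from 22200909 to 38253100 counts. Levels are counts per 1000000 after scaling by the trimmed mean of M-values (TMM-scaled CPM), a scaling that assumes most genes do not change. Mitochondrial transcripts took 43.6 ± 2.19% of control counts, 17.0 ± 0.263% in CKD and 17.8 ± 3.18% with colchicine (SD, n = 4), and TMM factors averaged 0.624, 1.26 and 1.28. With library totals alone, the median log2 fold change of all genes between CKD and control was 1.05 instead of 0.04, so directions are relative to that median. Kidney tubule markers such as Slc34a1 and Umod were present in every group, with a summed level of 8538 to 9263 CPM in control, 1843 to 2202 in CKD and 1125 to 1491 with colchicine. In bulk tissue, fewer cells of a type and less RNA per cell cannot be told apart.

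In adenine CKD, 8 of the 10 tubulin genes rose and 2 fell. Tubb2b, Tubb6, Tuba1a and Tubb5 rose 4.41-fold to 7.06-fold, Tubb2a and Tuba1b 2.34-fold and 2.00-fold, and Tuba1c 1.34-fold, while Tubb3 rose from near 0. Tuba4a and Tubb4b fell. A gene was called at a Benjamini-Hochberg adjusted p below 0.05 in edgeR's quasi-likelihood test. By this rule 67.4% of all genes tested were called, 34.1% higher and 33.4% lower, and 66.2% had groups that did not overlap. The median log2 fold change of the tubulins was 1.69 against 0.04 for all genes. All 10 had groups that did not overlap.

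Tuba1a, an alpha isotype best known from developing neurons, measured 34.9, 24.1, 25.3 and 29.2 CPM in control replicates 1 to 4 and 141, 129, 139 and 127 CPM in CKD. The lowest CKD library stood well above the highest control, and the log2 fold change was 2.24 ± 0.10 (SE; edgeR adjusted p = 4.6e-11). Tuba1b, a broadly expressed alpha isotype, measured 143, 122, 119 and 122 CPM in control and 255, 246, 255 and 253 CPM in CKD, and rose by 1.00 ± 0.08. Control replicate 1 was the highest of its group and still far below CKD. Tuba1c ranged from 69.5 to 85.6 CPM in control and from 98.8 to 112 CPM in CKD. Its rise of 0.43 ± 0.08 was the smallest of the 8 (edgeR adjusted p = 0.000127).

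Tuba4a moved the other way. It is the alpha isotype whose gene does not encode the terminal tyrosine found on other alpha tubulins. It measured 136, 120, 123 and 128 CPM in control and 43.9, 40.1, 44.7 and 46.4 CPM in CKD, with no overlap. Its log2 fold change was -1.53 ± 0.09 (edgeR adjusted p = 1.1e-09), and it was still lower when libraries were scaled by totals alone (-0.52).

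Among the beta genes, Tubb5, the common isotype of proliferating cells, measured 79.0, 70.9, 67.99 and 69.5 CPM in control and 325, 322, 316 and 305 CPM in CKD. The groups lay far apart, and the log2 fold change was 2.14 ± 0.08. Tubb2b, an isotype prominent in developing brain, measured 10.4, 10.3, 10.4 and 11.9 CPM in control and 74.8, 81.2, 78.7 and 68.9 CPM in CKD. Its rise of 2.82 ± 0.09 exceeded that of its near copy Tubb2a, which went from 21.1 to 33.6 CPM in control to 63.7 to 72.8 CPM in CKD, a change of 1.23 ± 0.12. Tubb6, a divergent beta isotype, measured 5.83, 3.97, 7.39 and 5.74 CPM in control and 37.99, 32.8, 37.2 and 34.7 CPM in CKD, and rose by 2.65 ± 0.16.

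Tubb3, the beta isotype used as a neuronal marker, was nearly absent from control kidney, with 1, 1, 2 and 2 counts. It had 34, 33, 67 and 40 counts in CKD, or 1.17 to 1.99 CPM. The fitted log2 fold change was 3.92 ± 0.43, the least precise of the 10 because of the few control counts. Neuron and Schwann cell markers summed to 18.6 to 19.7 CPM in control and 20.4 to 24.7 in CKD, with no overlap. Of 10 tested, 3 were called higher and 2 lower, with log2 fold changes from -1.10 to 1.36 and a median of 0.46, against 0.04 for all genes tested. Their part in the Tubb3 rise was not tested.

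Tubb4b, a beta isotype of cilia and of many epithelia, measured 153, 149, 149 and 142 CPM in control and 93.0, 85.7, 83.8 and 90.5 CPM in CKD. The groups did not overlap, and the log2 fold change was -0.75 ± 0.06 (edgeR adjusted p = 2.9e-08). This direction depends on the scaling: with library totals alone it was 0.27 (edgeR adjusted p = 0.0028). It fell relative to the median gene under either scaling. The ratio of Tubb5 to Tubb4b counts, which no scaling changes, was 0.485 ± 0.026 in control and 3.60 ± 0.201 in CKD. Motile cilium markers summed to 4.74 to 6.26 CPM in control and 18.5 to 21.5 in CKD. Of 6 tested, 3 were called higher and 0 lower. Their relation to Tubb4b was not tested.

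**Figure D1:**
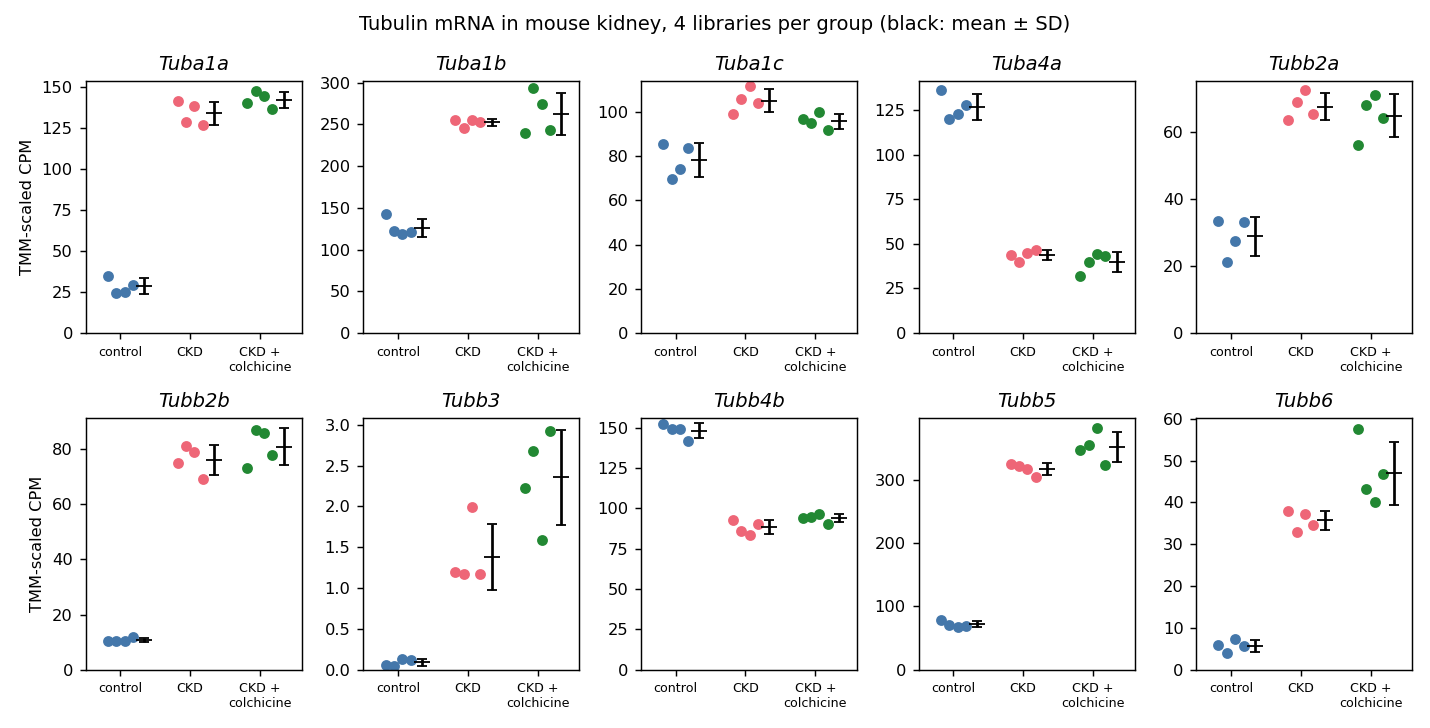
Levels of the 10 tubulin genes (y axis, TMM-scaled CPM, starting at 0) in 4 libraries of each group (points, replicates 1 to 4 from the left), with the mean ± SD in black. CKD and colchicine libraries lie apart from control in every panel, below it for Tuba4a and Tubb4b and above it for the other 8. The CKD and colchicine libraries overlap each other in every panel except that of Tubb6.

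**Figure D2:**
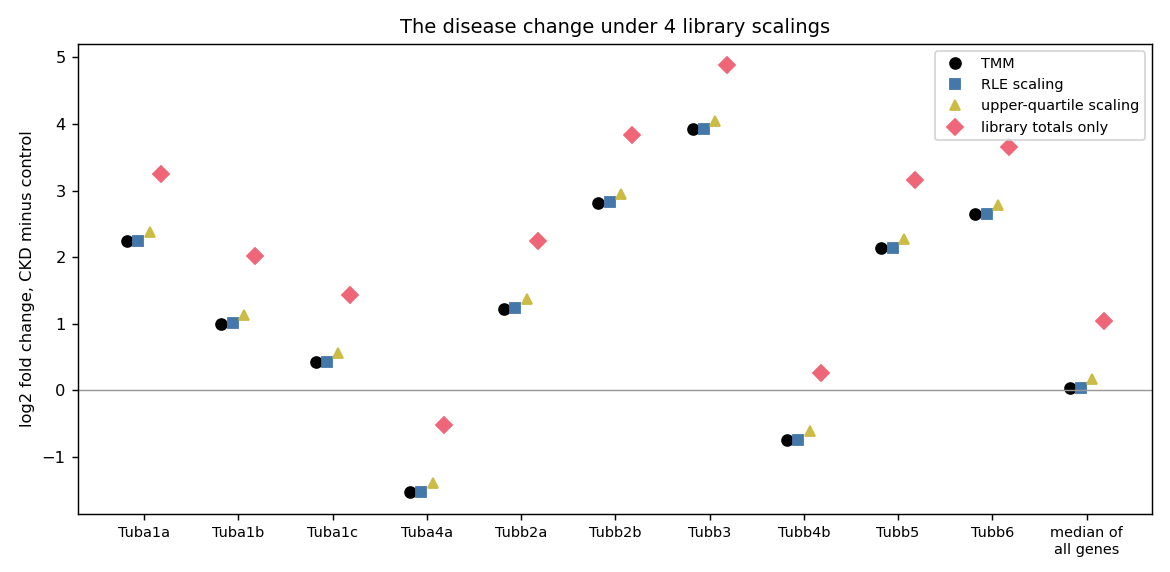
Log2 fold change between CKD and control (y axis) of each tubulin and of the median gene (x axis) under 4 library scalings (symbols). Library totals alone shift all points upward with the median gene, from 0.04 to 1.05, and carry Tubb4b across 0, while Tuba4a stays below 0.

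Several cell populations moved with these genes. All 10 cycling cell markers rose in CKD, with a summed level of 21.4 to 29.6 CPM in control and 87.7 to 118 in CKD. All 9 injured tubule markers rose (801 to 847 against 16079 to 18914 CPM), as did all 10 fibroblast and myofibroblast markers (571 to 648 against 4115 to 4953 CPM) and all 8 macrophage markers (95.6 to 113 against 1674 to 1723 CPM). No marker in these 4 lists was at 0 in every library of a group. All 6 neutrophil markers rose too. Other lists fell: 7 of 8 kidney tubule, 6 of 7 endothelium and all 5 erythrocyte markers were called lower. Over all genes tested, 34.1% were called higher and 33.4% lower. The part of these populations in the tubulin changes was not tested.

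The makeup of each family was then expressed as a share of the counts of its members, a description that does not depend on library scaling. Tuba4a and Tuba1b held similar parts of alpha-tubulin counts in control, 35.3 ± 0.867% and 35.1 ± 1.21%. In CKD, Tuba4a held 8.18 ± 0.434% and Tuba1b 47.2 ± 0.574%, and Tuba1a went from 7.85 ± 0.693% to 25.0 ± 0.966%. Tubb4b was the largest part of beta-tubulin counts in control at 55.8 ± 2.10% and held 15.1 ± 0.878% in CKD. Tubb5 went from 27.0 ± 1.02% to 54.1 ± 0.472%, and Tubb2b from 4.06 ± 0.352% to 12.9 ± 0.70%. Tubb2a kept a similar part, 10.9 ± 1.95% and 11.6 ± 0.665%.

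**Figure D3:**
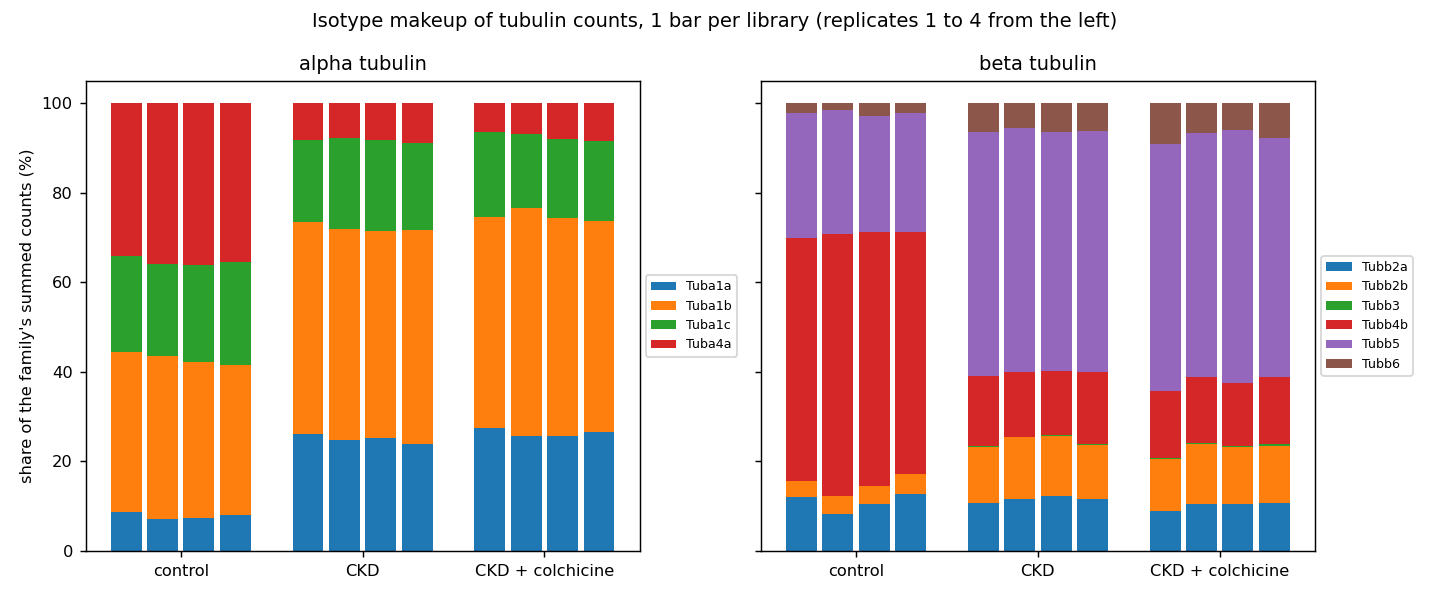
Share of each isotype in the summed alpha (left) and beta (right) tubulin counts (y axis, percent), 1 bar per library, grouped as control, CKD and CKD with colchicine. Tuba4a and Tubb4b shrink in CKD while Tuba1a and Tubb5 grow, and the colchicine bars resemble the CKD bars.

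Levels were compared between genes as CPM per kilobase of transcript. In control the order was Tubb4b (92.7), Tuba1b (72.4), Tuba4a (44.6), Tuba1c (39.5), Tubb5 (27.1), Tubb2a (17.97), Tuba1a (15.7), Tubb2b (4.93), Tubb6 (3.26) and Tubb3 (0.048). Among neighbours in that order, Tuba4a and Tuba1c overlapped between libraries, as did Tubb2a and Tuba1a. In CKD, Tuba1b (145) and Tubb5 (120) led, followed by Tuba1a (74.2), then Tubb4b (55.2) and Tuba1c (53.0), which overlapped. Tubb2a (42.1), Tubb2b (34.8), Tubb6 (20.3) and Tuba4a (15.4) came next, and Tubb3 (0.741) was last. With colchicine the order of genes was as in CKD, from Tuba1b (151) and Tubb5 (133), which overlapped, to Tuba4a (14.0) and Tubb3 (1.26). These levels rest on 1 transcript length per gene.

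The promoters of 4 genes that exchanged places within their families are shown, as 250 bases before the start of the gene from RefSeq on GRCm38.p6. Of the 10 genes, 8 had an entry. Capitals mark the CCAAT box (CCAAT) and the GC box (GGGCGG), on either strand. All 4 genes lie on the minus strand, Tuba1a at chr15:98953502-98953751, Tuba4a at chr1:75219295-75219544, Tubb4b at chr2:25224703-25224952 and Tubb5 at chr17:35838302-35838551.
Tuba1a: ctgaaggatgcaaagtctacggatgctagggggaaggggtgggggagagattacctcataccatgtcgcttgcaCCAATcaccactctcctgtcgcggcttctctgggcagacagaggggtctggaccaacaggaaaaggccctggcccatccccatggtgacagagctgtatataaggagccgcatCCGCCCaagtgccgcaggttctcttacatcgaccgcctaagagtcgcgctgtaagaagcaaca
Tuba4a: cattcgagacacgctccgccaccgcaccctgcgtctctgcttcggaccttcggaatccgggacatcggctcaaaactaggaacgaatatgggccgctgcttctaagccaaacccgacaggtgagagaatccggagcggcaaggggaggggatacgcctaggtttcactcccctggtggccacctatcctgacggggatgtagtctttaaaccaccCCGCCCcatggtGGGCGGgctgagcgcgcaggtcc
Tubb4b: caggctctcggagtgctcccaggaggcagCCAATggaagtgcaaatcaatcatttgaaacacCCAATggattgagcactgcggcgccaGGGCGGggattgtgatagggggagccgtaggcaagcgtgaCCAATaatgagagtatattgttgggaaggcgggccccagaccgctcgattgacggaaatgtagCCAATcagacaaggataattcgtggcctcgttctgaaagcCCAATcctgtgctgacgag
Tubb5: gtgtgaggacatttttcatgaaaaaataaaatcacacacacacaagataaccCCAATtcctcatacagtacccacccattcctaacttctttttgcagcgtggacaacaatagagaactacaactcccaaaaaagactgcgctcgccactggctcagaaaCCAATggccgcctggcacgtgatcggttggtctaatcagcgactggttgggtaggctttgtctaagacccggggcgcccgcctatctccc
Tubb4b, which fell, held 5 CCAAT matches, and Tubb5, which rose, held 2. Tuba1a held 1 and Tuba4a none. CCAAT occurred in 5 of the 8 tubulin windows and in 33.9% of 32851 promoter windows of the same length, GGGCGG in 6 of 8 and in 32.7%, and TATAAA in 1 of 8 (Tubb2a) and in 12.4%. The matches do not sort the genes by direction and are a description of letters, not of binding.

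Colchicine added to the adenine diet left none of the 10 tubulin genes called against CKD in edgeR, in either direction. At an unadjusted p below 0.05 there were 2, Tubb3 and Tubb6, both higher with colchicine. Over all genes tested 15% were called, 6.79% higher and 8.24% lower, and 18.2% had groups that did not overlap, against 1 of the 10 tubulins (Tubb6). DESeq2 also called none of the 10, while limma-voom called 1 (Tubb6). The median log2 fold change of the 10 was 0.09, against 0.03 for all genes. The genome-wide count of 2682 is unstable: it was 992 without CKD replicate 3, 1196, 1385, 1426, 1518 and 1561 without colchicine replicate 2, colchicine replicate 3 and CKD replicates 1, 4 and 2, and 6401 without colchicine replicate 1.

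The question of autoregulation asks whether tubulin mRNA was lower under colchicine. Tuba1b measured 240, 293, 274 and 243 CPM with colchicine against 246 to 255 CPM in CKD, so that libraries with colchicine lay on both sides. Its log2 fold change was 0.06, with a 95% interval of -0.12 to 0.23 (edgeR adjusted p = 0.643). Tubb5 measured 347, 355, 382 and 324 CPM, against 305 to 325 CPM in CKD, and differed by 0.15 (interval -0.00 to 0.30, edgeR adjusted p = 0.155). Only colchicine replicate 4 fell within the CKD range. Tuba1a differed by 0.09 (-0.11 to 0.29), Tubb2b by 0.09 (-0.07 to 0.25), Tubb4b by 0.09 (-0.04 to 0.22) and Tubb2a by -0.06 (-0.32 to 0.20).

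Tuba1c and Tuba4a were the other genes with lower estimates. Tuba1c measured 96.8, 94.7, 99.9 and 91.8 CPM with colchicine against 98.8 to 112 CPM in CKD, a difference of -0.13 (-0.29 to 0.03, edgeR adjusted p = 0.225). Tuba4a measured 32.3, 39.8, 44.3 and 43.2 CPM against 40.1 to 46.4 CPM, a difference of -0.14 (-0.33 to 0.06, edgeR adjusted p = 0.316). Its lowest library is colchicine replicate 1, labelled 2% adenine, and without that library the difference was -0.05. With that library alone set against CKD, the difference was -0.44. Over the 10 genes the lower bounds of these intervals, from the fit of all 12 libraries, reached no further than -0.33. A larger fall of a group mean lies outside that gene's own interval in that fit, and the intervals have no joint cover. They concern bulk tissue, whose marker levels also differed. Kidney tubule markers summed to a mean of 2017 CPM in CKD and 1287 with colchicine, cycling cell markers to 105 and 144, and fibroblast and myofibroblast markers to 4614 and 5602. Tubulin mRNA per cell was not measured, so its fall within cells was not tested. An interval that includes 0 does not show that a level was the same.

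Tubb6 had the higher level in every colchicine library, at 57.6, 43.3, 40.1 and 46.8 CPM against 32.8 to 37.99 CPM in CKD. The groups did not overlap, and the log2 fold change was 0.39 (0.11 to 0.68), which missed the threshold (edgeR adjusted p = 0.0579). Colchicine replicate 1 was the highest, and without it the difference was 0.28 (adjusted p = 0.0685). Without control replicate 2 the gene was called (adjusted p = 0.0365). Replicate 1 was also highest in the summed cycling cell markers, with 214, 106, 107 and 150 CPM in colchicine replicates 1 to 4 against 87.7 to 118 in CKD. Fibroblast and myofibroblast markers summed to 6456, 5197, 4920 and 5835 CPM in these libraries, the same order as Tubb6, against 4115 to 4953 in CKD. Of these 10 markers 4 were called higher, but only 50% had a positive estimate. Their log2 fold changes ran from -0.34 to 0.52, with a median of 0.12. Platelet and megakaryocyte markers were also highest in replicate 1, at 36.9 CPM, with 16.4 to 21.7 in the other colchicine libraries and 13.4 to 17.0 in CKD. Among colchicine libraries, replicate 1 also had the highest sums for injured tubule (15390 CPM), endothelium (480), neutrophil (99.9) and T cell and B cell markers (16.6). It had the lowest sums for kidney tubule (1125), podocyte (232) and erythrocyte markers (14.5). The library thus differed broadly from the others of its group. The part of any of these populations in the Tubb6 difference was not tested.

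Tubb3 had 82, 114, 79 and 84 counts with colchicine, or 2.23, 2.68, 1.59 and 2.92 CPM, against 1.17 to 1.99 CPM in CKD. Colchicine replicate 3 fell within the CKD range. The log2 fold change was 0.76 (0.20 to 1.31) and missed the threshold (edgeR adjusted p = 0.0615). It was called without colchicine replicate 1 (0.78, edgeR adjusted p = 0.0395) and without colchicine replicate 3 (0.91, edgeR adjusted p = 0.0418). Without replicate 1, 6401 genes were called in all, against 2682 with every library, which loosens the adjusted threshold. Neuron and Schwann cell markers summed to 33.9, 28.2, 40.4 and 30.9 CPM in these libraries, against 20.4 to 24.7 in CKD. The sum was highest in colchicine replicate 3, where Tubb3 was lowest. Of 10 tested, 2 were called higher, with log2 fold changes from -0.89 to 0.71 and a median of 0.60. The part of these cells in the Tubb3 difference was not tested.

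**Figure D4:**
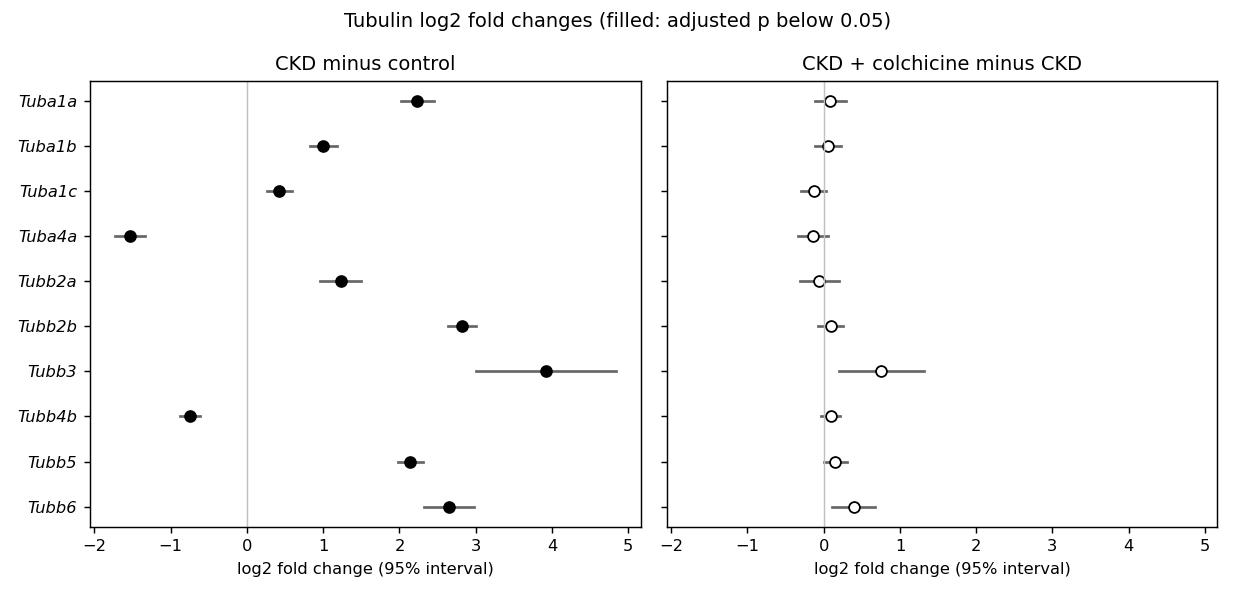
Log2 fold changes of the 10 tubulins with 95% intervals (x axis) for CKD against control (left) and colchicine with adenine against CKD (right), filled where the edgeR adjusted p is below 0.05. All 10 points are filled on the left and none on the right, where estimates lie between -0.14 and 0.76.

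Against control, the colchicine group is described beside CKD, with which it shares the control libraries. The same 8 genes were called higher and the same 2 lower, where 70.5% of all genes were called, 37.1% higher and 33.4% lower, and 62.5% did not overlap. Log2 fold changes were 2.32 for Tuba1a, 1.06 for Tuba1b, 0.29 for Tuba1c and -1.67 for Tuba4a. They were 2.91 for Tubb2b, 1.17 for Tubb2a, 4.67 for Tubb3, 2.29 for Tubb5 and 3.05 for Tubb6. Tubb4b stood at -0.66, and at 0.38 with library totals alone. Summed over the 10 genes, the level was 625 ± 39.7 CPM in control, 1121 ± 20.8 in CKD and 1182 ± 60.4 with colchicine (SD, n = 4), and the last 2 groups overlapped. Counts of alpha over beta members were 1.35 ± 0.057, 0.913 ± 0.027 and 0.843 ± 0.031.

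Of 10 other tubulin genes listed, 6 were tested, and Tuba3a, Tuba3b, Tubal3 and Tubb1 had at most 9 counts in any library. Tubb4a, the brain isotype closest to Tubb4b, rose in CKD from 2.35 to 11.7 CPM (2.32 ± 0.20). Of the gamma tubulins that nucleate microtubules, Tubg2 rose (1.26 ± 0.32) and Tubg1 fell, from a mean of 28.3 CPM to 22.5 CPM (-0.33 ± 0.07), but Tubg1 was higher with library totals alone (0.68). Tuba8, Tubd1 and Tube1 were not called. None of the 6 was called between colchicine and CKD. Tubb4a (0.32, adjusted p = 0.2003) and Tube1 (0.48, adjusted p = 0.189) were called by edgeR without colchicine replicate 1, with adjusted p = 0.0187 and 0.0482. They then stood at 0.44 and 0.62, and 6401 genes were called in all, against 2682 with every library. Tubg2 differed by 0.47, Tuba8 by 0.43, Tubg1 by -0.09 and Tubd1 by -0.15.

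Ttc5, Scaper, the Cnot genes named for CCR4-NOT, and the Tob and Btg genes were read next as a list. This list is wider than the TTC5 and SCAPER route described above. How far the Tob and Btg genes take part in tubulin mRNA decay was not tested. Of 17 tested, 5 rose and 3 fell in CKD, where 34.1% of all genes were called higher and 33.4% lower. The list's median log2 fold change was 0.05. Ttc5, which recognises nascent tubulin, lay in the same range, at 14.1 to 15.7 CPM in CKD against 14.2 to 15.9 in control (-0.01, edgeR adjusted p = 0.911). Scaper, its partner, rose by 0.32 ± 0.09 (adjusted p = 0.0045). Cnot3, a CCR4-NOT subunit, rose by 0.54 and Cnot11, another subunit, fell by 0.56. Tob1, an adaptor that links CCR4-NOT to mRNA, fell by 1.498, from 105 to 175 CPM in control to 42.8 to 64.0 CPM in CKD. With library totals alone 15 of the 17 rose, Cnot11 among them, and 1 fell. Of all 17841 genes, 13197 were then higher and 1850 lower.

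Between colchicine and CKD, 3 of the 17 were called, all lower, with a list median of -0.14. Over all genes, 6.79% were called higher and 8.24% lower. Tob1 differed by -0.62 ± 0.16, its paralog Tob2 by -0.64 ± 0.20 and Cnot4, a ubiquitin ligase, by -0.30 ± 0.10 (edgeR adjusted p = 0.0241, 0.0491 and 0.0472). Leaving out each of the 12 libraries in turn left Tob1 called in 7 cases, Tob2 in 3 and Cnot4 in 1. Ttc5 was at 14.6 to 17.6 CPM with colchicine (0.13, interval -0.03 to 0.30, adjusted p = 0.247). Scaper was not called either (0.08, interval -0.10 to 0.26, adjusted p = 0.518).

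Genes of a tubulin folding list, which holds chaperones and related genes, were mostly lower in CKD. Of 22 tested, 15 fell and 1 rose (Tbce), where 33.4% of all genes were called lower and 34.1% higher. The list's median log2 fold change was -0.30 against 0.04 for all genes. The genes of smallest p were Tbcel, a tubulin cofactor E relative (-1.07 ± 0.07), and the prefoldin subunits Pfdn1 and Pfdn2 (both -0.93). This direction depends on the scaling: 8 fell and 2 rose with upper-quartile factors, and 19 rose and none fell with library totals alone. By totals, 13197 of all 17841 genes were higher and 1850 lower. With colchicine, Arl2, a small GTPase of tubulin dimer assembly, and Pfdn6, a prefoldin subunit, rose by 0.63 ± 0.14 and 0.61 ± 0.14 over CKD (edgeR adjusted p = 0.0095 and 0.0119), and none of the 22 fell (median -0.03).

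Genes of enzymes that modify tubulin were called in both directions, as were all genes. Of 27 tested, 9 rose and 12 fell in CKD, with a median log2 fold change of -0.21. Over all genes tested, 34.1% were called higher and 33.4% lower. By library totals alone 21 of the list rose and none fell, where 13197 of 17841 genes were higher and 1850 lower. Vash2 and Vash1, which remove the terminal tyrosine of alpha tubulin, rose by 4.05 ± 0.22 and 1.55 ± 0.12. Vash2 went from 3 to 5 counts per control library to 111 to 119 in CKD. Agbl3, a deglutamylase, fell by 0.95 and was at 0.06 with library totals alone. With colchicine 4 rose over CKD and none fell, with a median of 0.12, where 6.79% of all genes were called higher and 8.24% lower. Vash1 measured 15.3 to 18.5 CPM with colchicine against 9.38 to 12.1 CPM in CKD, without overlap, and rose by 0.67 ± 0.11 (edgeR adjusted p = 0.0022). Svbp, the partner that vasohibins need for activity, rose by 0.45 ± 0.11 (adjusted p = 0.0144). Ttll6, a polyglutamylase, had 30 to 78 counts with colchicine against 5 to 17 in CKD and rose by 1.95 ± 0.44 (adjusted p = 0.0107). Tpgs1, a polyglutamylase subunit outside the naming rule and chosen after its value was seen, rose by 0.44 (adjusted p = 0.0229), but was called in 5 of 12 cases when each library was left out.

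Microtubule assembly factors followed. Of 23 tested, 8 rose and 6 fell in CKD, with a median log2 fold change of 0.17. Over all genes tested, 34.1% were called higher and 33.4% lower. By library totals alone 22 of the list rose and none fell, where 13197 of 17841 genes were higher and 1850 lower. Map4, the main microtubule-stabilising protein outside neurons, rose by 1.08 ± 0.09, Camsap1, which binds minus ends, by 0.65 and Clasp1, which binds plus ends, by 0.44. Between colchicine and CKD, 3 rose and 1 fell, with a median of -0.05, where 6.79% of all genes were called higher and 8.24% lower. Tppp3, a polymerisation-promoting protein, measured 11.9, 16.9, 7.43 and 13.2 CPM with colchicine against 2.41 to 3.21 CPM in CKD. Every colchicine library was above every CKD library, and the log2 fold change was 2.11 ± 0.21 (edgeR adjusted p = 8.5e-05). Its relative Tppp rose by 1.43 ± 0.31 (adjusted p = 0.0102) with overlapping groups. Mapre2, a plus-end binding protein, fell by 0.31 (adjusted p = 0.0148; 0.0511 without CKD replicate 3). Stmn1, which sequesters tubulin dimers and was chosen after its value was seen, rose by 0.35 (adjusted p = 0.0274; called in 7 of 12 cases). Markers of motile cilia moved with these genes: their sum was 18.5 to 21.5 CPM in CKD and 28.1 to 38.1 with colchicine, 3 of 6 tested were called higher, and their part was not tested.

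Of 7 genes in a list named for colchicine handling, 3 passed the filter and were tested. Whether the mouse Cyp3a genes in it act on colchicine was not tested. Abcb1b, an efflux pump that exports the drug, rose in CKD by 1.16 ± 0.20 and was lower with colchicine than in CKD, at 4.64 to 6.25 CPM against 6.63 to 10.4 CPM (-0.83 ± 0.19, edgeR adjusted p = 0.0115). Its paralog Abcb1a was not called in CKD (0.25, adjusted p = 0.137) or with colchicine (-0.26, adjusted p = 0.204). Abcb1a was called higher in CKD with upper-quartile factors (adjusted p = 0.023). Cyp3a13, a cytochrome P450, rose by 1.63 ± 0.27 in CKD and was not called with colchicine.

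The colchicine calls were also read with the labelled adenine percentage in the fit. Of the 14 genes of the tubulin-related lists called between colchicine and CKD, 3 remained called (Vash1, Tppp3 and Tppp) when a slope on the labelled percentage was fitted and the difference was read at 2%. Set against CKD, colchicine replicate 1 alone, the library labelled 2%, left 3 called (Tppp3, Tppp and Stmn1), with the single library assumed to vary like the others. Several calls were lost in the slope fit with a similar fold change and a larger standard error: Ttll6 was at 1.88 ± 0.57 in place of 1.95 ± 0.44, and Stmn1 at 0.32 ± 0.13 in place of 0.35 ± 0.10. Other lost calls had smaller estimates in the slope fit. Tpgs1 was at 0.20 in place of 0.44 and Cnot4 at -0.14 in place of -0.30. Pfdn6 was at 0.36 in place of 0.61 and Arl2 at 0.42 in place of 0.63. A lost call does not show by itself whether the percentage matters. The slope itself was called for 226 of 17841 genes and for none of the 10 tubulins. The smallest p among them was for Tuba4a, at 0.14 ± 0.05 log2 units per labelled percent (edgeR adjusted p = 0.134).

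For each tubulin, the 2 other genes with the highest Pearson correlation of log2 CPM over the 12 libraries are named as a description. All 12 libraries enter, so the difference from control is part of each coefficient. Tnfrsf1a (r = 0.998) and Lhfpl6 were closest to Tuba1a, Slc39a1 and Bgn to Tuba1b, Gpr183 and Crp to Tuba1c, and Acad8 and Supv3l1 to Tuba4a. Kcnc2 and Hoxd10 were closest to Tubb2a, Gxylt2 and Spi1 to Tubb2b, Gm17501 and Col7a1 to Tubb3, and Afap1l1 and Wipi2 to Tubb4b. Cdh6 and Gm34746 were closest to Tubb5, and Uhrf1 (r = 0.997) and Carhsp1 to Tubb6. The lowest of these coefficients was 0.965, for Tuba1c and Crp.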

How the data were processed

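Per the labels' protocols, total RNA was extracted with RNAiso Plus and sequenced from CORALL RNA-seq V2 libraries. The submitters' processing notes list STAR, Salmon, fastp and the GRCm39 build; their versions and the annotation are not stated here. The deposited values are whole numbers per gene, taken as the authors' estimated counts (expected counts) already rounded; the 28 values of 1000000 or more are all multiples of 10. Groups and replicate numbers came from the titles. The model was fitted in edgeR 4.0.16 (R 4.3.3): filterByExpr with a minimum count of 10, TMM scaling, a robust quasi-likelihood fit of 3 group means over 12 libraries, two-sided F tests and Benjamini-Hochberg adjustment over 17841 genes. The fit was also run on simulated counts in which few genes changed, equally up and down. Such counts cannot test the TMM assumption that most genes do not change. CPM per kilobase used GENCODE M21 transcript lengths (GRCm38). Alternatives were DESeq2 1.42.0, limma-voom (limma 3.58.1), other scalings and filters, the 8 libraries compared, a replicate block, the labelled adenine percentage, and each library left out. The genes named are the 10 tubulins, up to 3 of smallest p per other list and comparison, a few reported whatever their result, and the 2 genes most like each tubulin. Members and lists were chosen with earlier results of these data known. The labels place all libraries in batch 1.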

Additional observations from a re-analysis of the deposited data

Results flagged for a closer look

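Each of the 10 tubulins was examined in each group of 4 libraries, 30 sets in all, for a library whose distance from the nearest other took up most of the group's range by Dixon's test. Chance gives about 1 set in 20, and 3 were found. Tuba1b in control replicate 1 was at 142.6 CPM, with the nearest control library at 121.8. Tubb2b in control replicate 4 was at 11.88 CPM, with the nearest at 10.41. Tubb3 in CKD replicate 3 was at 1.994 CPM, with the nearest at 1.196. Without CKD replicate 3, Tubb3 differed between colchicine and CKD by 0.99 on the log2 scale, against 0.76 with it (edgeR adjusted p = 0.0501 and 0.0615). None of the 3 libraries overlapped the other condition in the comparison of CKD with control.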

How the results depend on the processing

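For CKD against control and colchicine against control, all 10 tubulins kept their direction and call under every alternative run except library totals alone, which turned Tubb4b to 0.27 and 0.38. That scaling left 1 tubulin called lower in either comparison, with 13197 genes higher and 1850 lower in CKD and 13762 and 1953 with colchicine, against 6076, 5952, 6612 and 5964 by TMM. With upper-quartile factors 8134 genes were higher and 4849 lower for colchicine against control, and 1764 and 1185 for colchicine against CKD, where TMM gave 1212 and 1470.

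Between colchicine and CKD, upper-quartile factors called 2 tubulins higher (Tubb3 and Tubb6), as did a filter of 50 counts in 4 libraries. Tubb6 was the 1 called by limma-voom, by a fit of the 8 libraries compared, and with colchicine replicate 1 alone, which also called 1 lower (Tuba4a, -0.44). Leaving out 1 library gave 0 to 1 tubulins higher, 992 to 6401 genes called, 419 to 2882 higher and 573 to 3519 lower. DESeq2 called 2303 genes lower. The adenine slope read at 2% called 1008 genes, 392 higher and 616 lower, and colchicine replicate 1 alone 777, 449 and 328, where 2682 were called by the fit as reported. The causes of these changes were not tested.

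Libraries of the same replicate number showed little shared deviation: 1 of 12 same-numbered pairs had correlated deviations above 0.1. Of 24 library-and-group combinations, 3 had their best correlation with their own number. Such a check cannot exclude a pairing of the samples. With the replicate block 1756 genes were called, 694 of them higher. The block called no tubulin, and Cnot4 and Tob2 were no longer called.

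Small uncalled differences between colchicine and CKD changed sign. Colchicine replicate 1 alone gave -0.0733 for Tuba1b, -0.0580 for Tubb2b, -0.0771 for Tube1, -0.17 for Tubb4a, -0.21 for Tubg2, 0.18 for Tubd1 and -0.0380 for Ttc5. The slope gave -0.0080 for Tubb4a and 0.0705 for Tubd1. Leaving out 1 library moved Tuba1b between -0.0010 and 0.0952 and Tubb2a between -0.107 and 0.00013. Tubb2a was at 0.0059 with upper-quartile factors. Cnot4, called at -0.30, was at 0.0134 with colchicine replicate 1 alone. For CKD against control, library totals alone gave 0.89 for Tuba8, 0.90 for Tubd1 and 1.00 for Ttc5, and for genes called lower by TMM 0.68 (Tubg1), 0.45 (Cnot11), 0.0832 (Pfdn1), 0.0772 (Pfdn2) and 0.0560 (Agbl3). Upper-quartile factors gave 0.0055 for Tuba8, 0.0215 for Tubd1 and 0.12 for Ttc5. Ttc5 was also positive without a filter (0.0450), with the stricter filter (0.0061) and in the 8 libraries compared (0.0078). Leaving out 1 library moved Tuba8 between -0.37 and 0.11 and Ttc5 between -0.0414 and 0.0172. Counted over every symbol of the family, Tubb5 held 53.0% of beta counts in CKD.

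Counts of 1 or 2 per control library limit Tubb3, and shared sequence limits the separation of Tuba1a, Tuba1b, Tuba1c, Tubb2a and Tubb2b.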
